A study of Mus musculus with 6 samples.

Results

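The 10 Frizzled receptor genes Fzd1 to Fzd10 of the mouse were examined for what remained of the family in embryos that lack Fzd2 and Fzd7. They were chosen by gene symbol, as every probe set that the array's annotation assigns to exactly 1 of these symbols, which gave 26 probe sets for 10 genes out of 34945 such probe sets for 18193 genes. Each gene was represented by its brightest probe set, the one with the highest mean over all arrays, and its other probe sets are given beside it. Whole embryos were taken at embryonic day 8.5, and the RNA was hybridised to 6 Affymetrix arrays in 1 colour. In the double knockout (3 arrays) both genes were homozygous null, written Fz2-/-; Fz7-/- in the labels. The single knockout (3 arrays) was wild type at Fz2 and homozygous null at Fz7, written Fz2+/+; Fz7-/-, so loss of Fz7 is shared by both groups. All samples were of mixed gender and of a C57BL6/129 mixed background. Wild-type embryos were not analysed here, so every value is relative to embryos that already lack Fz7. Neither the number of embryos per sample nor the making of the null alleles is stated in the labels, nor whether replicates were separate litters. The p-values therefore cover only the spread between these 6 samples, and that spread may be technical.

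Frizzled proteins are cell surface receptors with a membrane-spanning core and an extracellular cysteine-rich domain that binds Wnt ligands. Together with Lrp5 or Lrp6 they stabilise beta-catenin, and through Dishevelled and the Vangl and Celsr proteins they orient cells in planar cell polarity, which drives convergent extension and neural tube closure at this stage. Fzd1, Fzd2 and Fzd7 form one branch of the family, Fzd5 and Fzd8 another, Fzd3 and Fzd6 one with known roles in tissue polarity, and Fzd4, Fzd9 and Fzd10 the last.

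Values are log2 signals after RMA (robust multi-array average), and a difference of 1 is a 2-fold change. Array medians over all probe sets lay between 5.79 and 5.82. Replicate 1 of the double knockout was unlike the other 5 arrays, with correlations of 0.986 to 0.990 to them across genes, whereas the others correlated at 0.997 to 0.998 among themselves. All 17 measured genes of visceral endoderm and yolk sac had their highest value of the 6 arrays in it. Their mean level was 10.33 in this array, 7.83 and 7.84 in double knockout replicates 2 and 3, and 7.76 to 8.13 in the single knockout. Of 15 neural plate genes 12 were lowest in it, with a mean level of 6.94, against 7.81 and 7.90 in the other double knockout arrays and 7.89 to 8.08 in the single knockout. The other cell type lists also stood apart in this array. Its mean level was 8.37 for cardiac genes, against 9.69 to 9.92 in the other 5 arrays, and 5.43 for trophoblast genes, against 4.34 to 4.38. It was 5.46 for primitive erythroid genes, against 6.57 to 8.40, and 7.40 for epiblast genes, against 6.43 to 6.95. For somite genes it was 6.70, against 7.03 to 7.45. Over all genes 29.7% were lowest and 25.3% highest in double knockout replicate 1. Each receptor difference is therefore given with and without this array. The other arrays were not alike in every list either. Mean levels of primitive erythroid genes were 8.34 and 6.57 in double knockout replicates 2 and 3, and 7.98 to 8.40 in the single knockout. Those of epiblast genes were 6.72 and 6.95, against 6.43 to 6.54, and of somite genes 7.08 and 7.03, against 7.14 to 7.45. Cardiac and trophoblast means of replicates 2 and 3 lay within the single knockout range. In whole-embryo RNA, fewer cells of a type and less RNA per cell cannot be told apart.

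Fzd2 was the only receptor of the 10 that passed the test. On its brightest probe set, replicates 1 to 3 of the double knockout had signals of 7.30, 7.69 and 7.63, and those of the single knockout had 9.86, 9.99 and 10.01. All double knockout arrays lay far below all single knockout arrays, and the arrays within a group lay close together. Fzd2 fell by 2.42 (SE 0.11, n = 3 per group, limma adjusted p = 0.00567), with a 95% interval of the difference from -2.69 to -2.15, which leaves 18.7% of the single knockout signal. With 3 arrays per group an exact two-sided permutation test cannot go below 0.1, the value it gave for Fzd2. Over all genes 1 of 18193, or 0.0055%, was called lower, and that gene was Fzd2. Without double knockout replicate 1 the difference was -2.30 (limma adjusted p = 0.000601). The call did not hold when double knockout replicate 3 or any 1 of the single knockout arrays was left out (limma adjusted p = 0.0759 to 0.120), or with the mean of the Fzd2 probe sets (limma adjusted p = 0.0691), with differences of -2.49 to -2.39.

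The other probe sets of Fzd2 showed the same separation. The second read 6.83, 7.58 and 7.46 in the double knockout and 9.92, 10.09 and 10.05 in the single knockout, which differ by -2.73 (SE 0.19). The third read 6.62, 7.59 and 7.51 in the double knockout and 9.55, 9.61 and 9.56 in the single knockout, which differ by -2.33 (SE 0.25). Replicate 1 was the lowest double knockout array on all 3 probe sets. With all 34945 probe sets tested, the second passed narrowly (limma adjusted p = 0.0494) and the third did not pass (limma adjusted p = 0.453). Over all of them 2, or 0.00572%, passed. The signal left in the double knockout stayed above the array medians on each probe set. The labels do not give where these probe sets lie relative to the deleted part of Fz2.

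Fzd7, null in both groups, was the dimmest of the 10. It read 4.996, 4.85 and 4.81 in the double knockout and 4.92, 4.93 and 4.92 in the single knockout, all below the array medians. The difference was -0.039 (SE 0.065, limma adjusted p = 0.923), or -0.094 without double knockout replicate 1. Its second probe set was dimmer still, with means of 3.73 and 3.79 in the double and single knockout, and differed by -0.068. The place of these probe sets relative to the Fz7 deletion is not given either, so they do not check the Fz7 genotype.

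**Figure D1:**
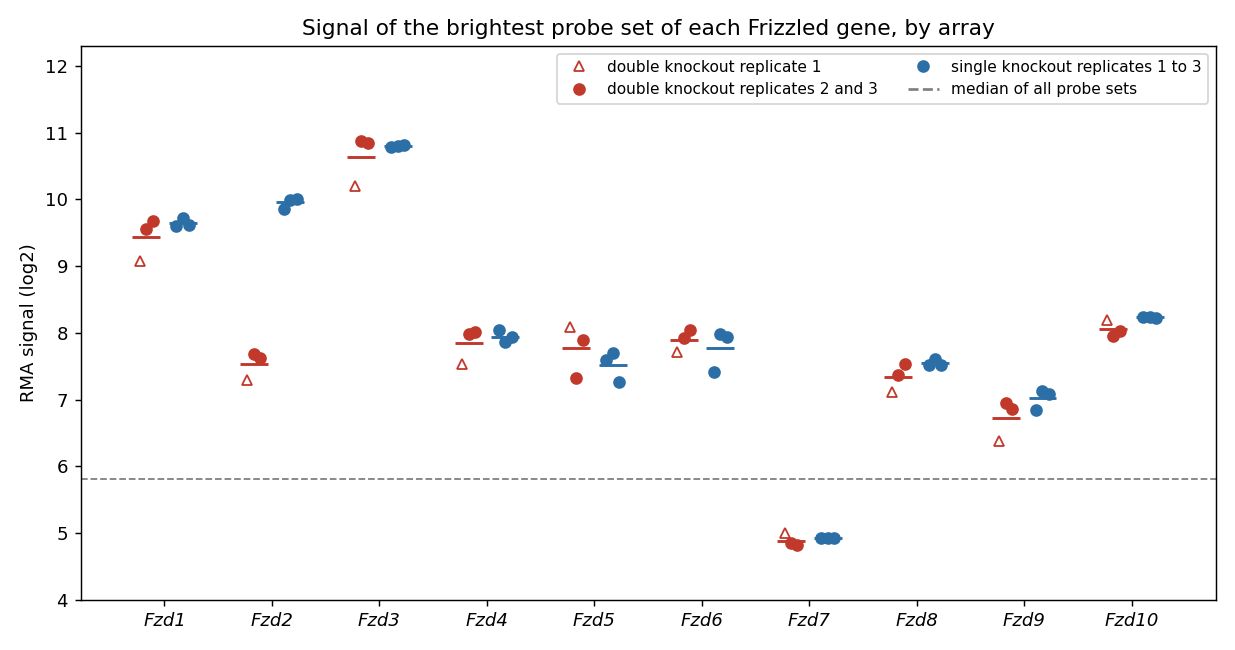
Log2 RMA signal (vertical axis) of the brightest probe set of each Frizzled gene (horizontal axis) in the double knockout (red, left of each pair) and the single knockout (blue, right), with 1 point per array and the group mean as a bar. The open triangle is double knockout replicate 1 and the dashed line the median of all probe sets. Only Fzd2 shows a wide gap between the groups, and the triangle is the lowest of the 6 points for 6 of the 10 genes, Fzd2 among them. Over all genes this array was the lowest for 29.7%.

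None of the 9 other receptors passed the test in either direction by limma, and 0 had an unadjusted p under 0.05, where 4.96% of all genes did. Their differences ran from -0.29 to 0.24, with limma adjusted p from 0.872 to 0.923. Of the 9, 7 were lower and 2 higher in the double knockout, with a median difference of -0.16. Over all genes 53.8% were lower, with a median of -0.0093. Without double knockout replicate 1 the split was 5 lower and 4 higher, with a median of -0.028. The upper end of each 95% interval was taken as a bound on the gain in signal of a receptor's brightest probe set. It is not a maximum. That bound was below 1.5-fold for 8 of the 9 receptors, and the exception was Fzd5 at 1.69-fold. Without double knockout replicate 1 it was again below 1.5-fold for 8 of 9, with Fzd6 the exception at 1.55-fold. These bounds do not show that the receptors stayed equal. Fzd7 is among the 7 lower and, in both settings, among the 8 below 1.5-fold. It was null in both groups and below the array medians, so its values carry no information on a gain.

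**Figure D2:**
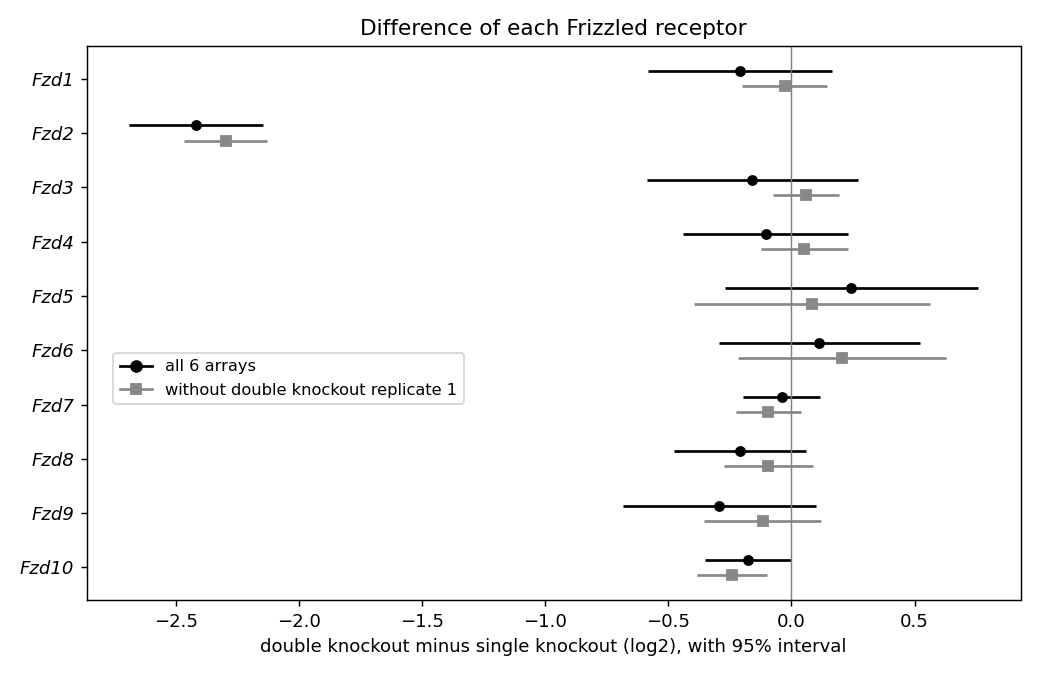
Difference of each Frizzled gene, double knockout minus single knockout on the log2 scale (horizontal axis), with its 95% limma interval, for all 6 arrays (black circles) and without double knockout replicate 1 (grey squares). Fzd2 lies at -2.42 and -2.30, while with all arrays the intervals of the other 9 genes reach across 0, that of Fzd10 only just.

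Fzd1, the remaining member of the branch that holds Fzd2 and Fzd7, did not pass the test and had a lower mean in the double knockout. It read 9.08, 9.56 and 9.68 in the double knockout, against 9.59, 9.73 and 9.62 in the single knockout. Replicate 1 was lowest and the groups overlapped. The difference was -0.21 (SE 0.16). The bound on a gain, the upper end of the interval, was 1.12-fold and is not a maximum. Without double knockout replicate 1 the difference was -0.028 and the bound 1.11-fold. A dim second probe set of Fzd1 differed by -0.029.

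Fzd3, which guides axons and acts with Fzd6 in tissue polarity, gave the brightest Frizzled signal in all 6 arrays. It read 10.21, 10.87 and 10.85 in the double knockout and 10.79, 10.80 and 10.82 in the single knockout. The low value in double knockout replicate 1 set the sign of the difference, which was -0.16 (SE 0.18) with this array and 0.059 without it. Of the 6 probe sets of Fzd3, 5 were lower and 1 higher, with differences from -0.20 to 0.11.

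Fzd6 read 7.71, 7.92 and 8.05 in the double knockout and 7.42, 7.98 and 7.94 in the single knockout. Here single knockout replicate 1 was the low array, and the groups overlapped. The difference was 0.11 (SE 0.17), but -0.067 without single knockout replicate 1, and 0.21 without double knockout replicate 1. All 3 probe sets of Fzd6 had differences above 0, the smallest 0.012.

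Fzd5, which is needed for vessel formation in the mouse yolk sac, had the highest difference of the 10. It read 8.08, 7.32 and 7.90 in the double knockout and 7.60, 7.70 and 7.27 in the single knockout. Double knockout replicate 1, the array with the high yolk sac genes, was the highest of the 6, and the groups overlapped. The part of yolk sac RNA in this value was not tested. The difference was 0.24 (SE 0.21), or 0.084 without that array. It was larger when double knockout replicate 2 was left out, at 0.47 (SE 0.15, limma adjusted p = 0.739). The second probe set differed by 0.15 with all arrays. Fzd8, its closest relative, read 7.11, 7.37 and 7.54 in the double knockout and 7.52, 7.61 and 7.51 in the single knockout. Replicate 1 was again lowest, and the difference of -0.21 (SE 0.11) became -0.094 without it.

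Fzd4, the receptor of the ligand Norrin in vessel growth, read 7.53, 7.98 and 8.02 in the double knockout and 8.04, 7.86 and 7.94 in the single knockout. Its difference was -0.10 (SE 0.14) with double knockout replicate 1 and 0.052 without it. Fzd9 was lowest of the 6 arrays in the same replicate. It read 6.37, 6.95 and 6.85 in the double knockout and 6.85, 7.13 and 7.08 in the single knockout, and differed by -0.29 (SE 0.16), or -0.12 without replicate 1. Fzd9 has a single probe set, so no second measurement stood beside it.

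Fzd10 was the only one of these 9 receptors whose groups did not overlap, and its difference was larger without double knockout replicate 1. It read 8.19, 7.95 and 8.03 in the double knockout, against 8.24, 8.23 and 8.22 in the single knockout. The single knockout arrays were very close to each other, and the nearest double knockout array, replicate 1, lay just below them. The difference was -0.18 (SE 0.073, limma adjusted p = 0.872), with a 95% interval from -0.35 to 0.00027, and the exact permutation p was 0.1, the smallest possible. Without double knockout replicate 1 the difference was -0.24, with an interval from -0.38 to -0.10, and it still did not pass (limma adjusted p = 0.701, unadjusted p = 0.00547). In that setting 6.67% of all genes had an unadjusted p under 0.05. Groups did not overlap in the lower direction for 6.6% of all genes, so 1 such gene among 9 is near the background. The dim second probe set of Fzd10 differed by -0.15, and its groups overlapped.

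**Figure D3:**
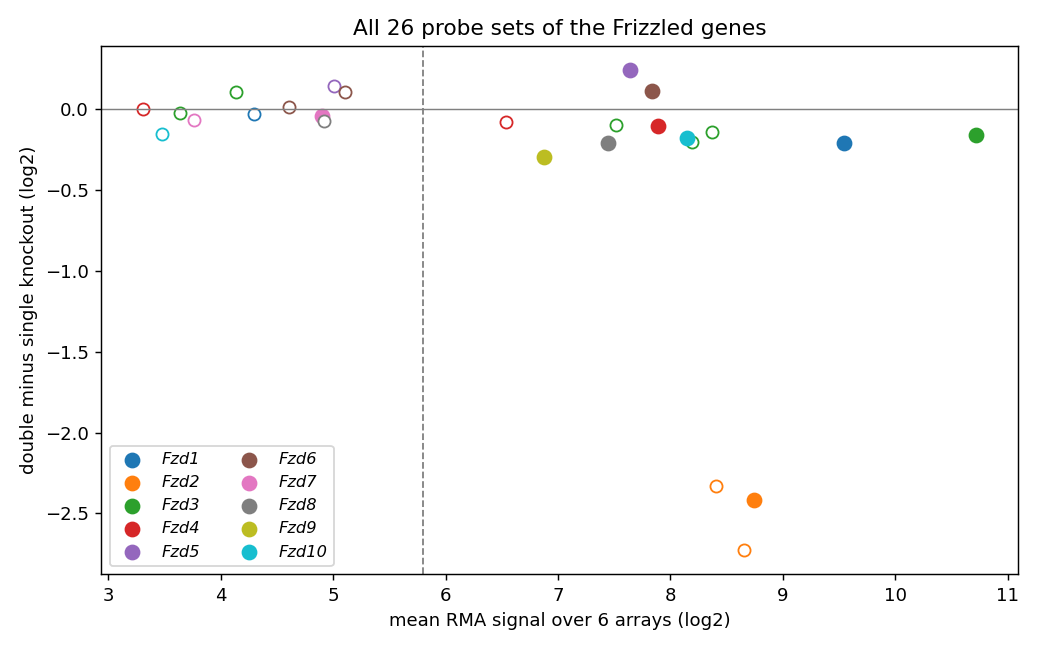
Difference between double and single knockout (vertical axis, log2) against the mean signal over 6 arrays (horizontal axis, log2) for the 26 probe sets of the Frizzled genes, 1 colour per gene. Filled points are the brightest probe set of each gene, open points the others, and the dashed line marks the median of all probe sets. The 3 Fzd2 probe sets lie between -2.73 and -2.33, all others between -0.29 and 0.24.

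Of the 23 probe sets of receptors other than Fzd2, 16 were lower and 7 higher in the double knockout with all arrays. Probe sets of a gene were read on the same arrays, so these are not 23 separate measurements. Both probe sets of Fzd7, null in both groups, are among the 16. By gene, the split without double knockout replicate 1 was 5 lower and 4 higher, as given above. The probe sets of a gene had differences of one sign for every receptor except Fzd3 and Fzd4. Across the 26 probe sets, 11 had a mean below the array medians, where RMA compresses differences, among them both probe sets of Fzd7.

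The order of the receptors by signal changed mainly through Fzd2. Probe sets bind their targets with different strength, so this is an order of array signal and does not rank mRNA amounts between genes. In the double knockout the order was Fzd3 (10.64 ± 0.38), Fzd1 (9.44 ± 0.32), Fzd10 (8.06 ± 0.12), Fzd6 (7.89 ± 0.17), Fzd4 (7.84 ± 0.27), Fzd5 (7.77 ± 0.40), Fzd2 (7.54 ± 0.21), Fzd8 (7.34 ± 0.22), Fzd9 (6.73 ± 0.31) and Fzd7 (4.89 ± 0.10; mean ± SD, n = 3). In the single knockout it was Fzd3 (10.80 ± 0.02), Fzd2 (9.95 ± 0.08), Fzd1 (9.65 ± 0.07), Fzd10 (8.23 ± 0.01), Fzd4 (7.94 ± 0.09), Fzd6 (7.78 ± 0.31), Fzd8 (7.55 ± 0.05), Fzd5 (7.52 ± 0.22), Fzd9 (7.02 ± 0.15) and Fzd7 (4.92 ± 0.01). Fzd2 was thus in position 7 in the double knockout, against position 2 in all 3 single knockout arrays. In the double knockout each gene from Fzd10 down to Fzd8 overlapped its next neighbour in array range, so these neighbours are not set apart by range. Genes farther apart in that stretch can be, since all arrays of Fzd10 and Fzd6 lay above all those of Fzd2 and Fzd8. Compared within each array, Fzd2 lay above Fzd8 in all 3 double knockout arrays. Each other pair of next neighbours in that stretch kept its order in 2 of 3. In the single knockout, next neighbours overlapped from Fzd4 through Fzd6 and Fzd8 to Fzd5, while all arrays of Fzd4 lay above those of Fzd8 and Fzd5. With replicate 1 left out, Fzd4 took position 3 in the double knockout, Fzd10 position 4, Fzd6 position 5, Fzd2 position 6 and Fzd5 position 7. Fzd3 first, Fzd9 in position 9 and Fzd7 last held in each of the 6 arrays.

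**Figure D4:**
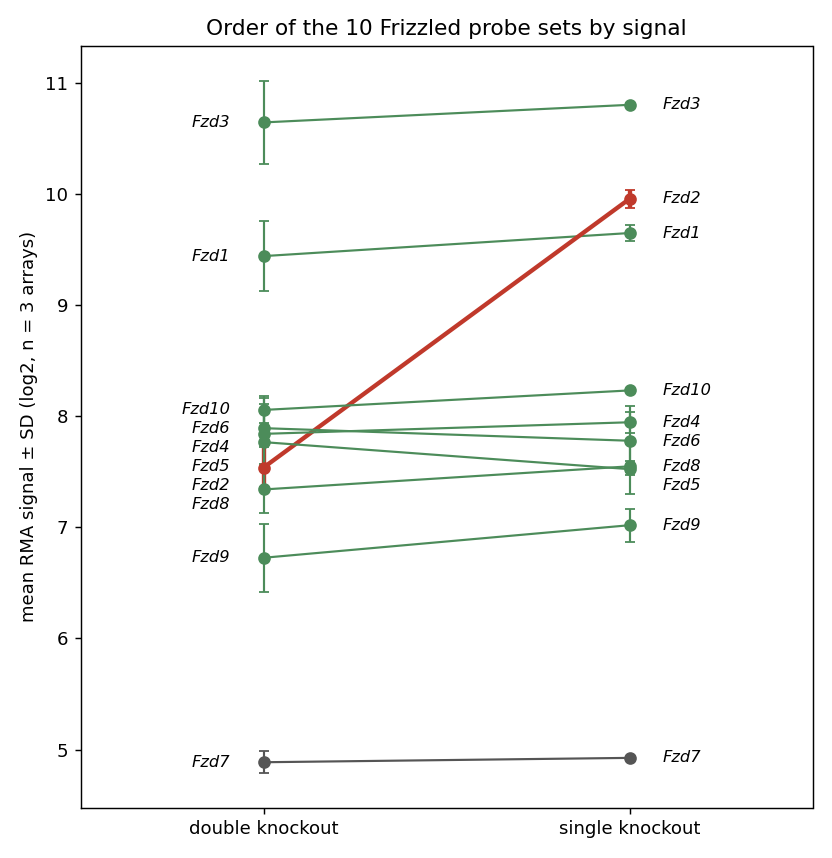
Mean RMA signal (vertical axis, log2) of the 10 Frizzled probe sets in the double knockout (left) and the single knockout (right), with bars of 1 SD over 3 arrays and labels spread to stay legible. Fzd2 (red) moves across 5 positions, while Fzd3, Fzd9 and Fzd7 (grey) keep theirs.

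Double knockout replicate 1 was the array in which the family differed most. Leaving out Fzd2, 6 of 9 receptors lay below the lowest single knockout array in it and 2 above the highest, with deviations from the single knockout mean between -0.64 and 0.56. Over all genes 35.7% lay below and 30.8% above the single knockout range in this array. In double knockout replicate 2 the counts were 4 below and 1 above, where all genes gave 31.0% and 20.7%. In replicate 3 they were 2 below and 3 above, where all genes gave 23.6% and 26.6%. Fzd10, at -0.044, Fzd7, at 0.071, and Fzd6, at -0.073, were near the single knockout mean in replicate 1. Fzd10 is still among the 6 below the single knockout range there, and Fzd7 among the 2 above it. Fzd7, null in both groups and below the array medians, is also among those counted below in replicates 2 and 3. The part of the yolk sac, neural plate and other cell type levels of replicate 1 in its deviations was not tested. Fzd1 and Fzd8 had the most similar profiles within the family, with a root mean square difference of 0.068 between their mean-centred values over the 6 arrays. Both were lowest in that array.

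Profiles across the whole table were compared with those of Fzd2 and of Fzd5, the most variable receptor after it. The nearest to Fzd2 were Sostdc1, which encodes a secreted antagonist of BMPs and Wnts, En2, a midbrain and hindbrain transcription factor gene, and Olig2, a neural progenitor factor gene. Their root mean square differences from Fzd2 were 0.56, 0.58 and 0.65 over 6 arrays, and their group differences were smaller than that of Fzd2, at -1.36, -1.44 and -1.31. None of them passed (limma adjusted p = 0.872 for each). They were picked for likeness to Fzd2 over these same arrays, so their lower values in the double knockout follow from the selection. The nearest to Fzd5 were Gm15523, Cnmd, which encodes the cartilage protein chondromodulin, and Prune2, with root mean square differences of 0.078, 0.084 and 0.089. All 3 were highest in double knockout replicate 1, as Fzd5 was, which likewise follows from how they were picked.

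Genes that act with the receptors gave no call in any of 5 lists by limma with adjustment over all genes, with or without double knockout replicate 1. The counts below stand beside 53.8% of all genes lower and 4.96% with an unadjusted p under 0.05, or 6.67% without that array. Among 25 partners and turnover genes of Frizzled, 11 were lower and 14 higher (median 0.008), and 2 had an unadjusted p under 0.05. The direction turned without that array, with 18 lower and 7 higher (median -0.036) and 4 under that p. Tspan12, which helps Fzd4 to signal for Norrin, read 9.18, 9.17 and 9.13 in the double knockout and 8.99, 8.78 and 8.97 in the single knockout, which differ by 0.25. Shisa3, of a family known in Xenopus to retain Frizzled inside the cell, differed by -1.23 with all arrays and by -0.74 without double knockout replicate 1. Of 20 ligand genes 14 were lower and 6 higher (median -0.048), and 4 had an unadjusted p under 0.05. Without replicate 1 of the double knockout the split was the same (median -0.018), with 7 under that p. Groups did not overlap for 5 ligand genes in the lower and 2 in the higher direction, beside 6.6% and 4.85% of all genes. The ligand genes Wnt6 and Wnt5b differed by -0.41 and -0.39, and both were among those 5. They were named as the 2 ligand genes lowest in unadjusted p, a pick that favours such genes. Lower and higher without overlap were 2 and 1 of the 25 partners and turnover genes, and 2 and 1 of 15 secreted antagonists. They were 3 and 0 of 14 beta-catenin targets, and 1 and 2 of 16 planar cell polarity genes.

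Among 15 secreted antagonists of Wnt or Frizzled, 8 were lower and 7 higher (median -0.052), or 10 lower and 5 higher (median -0.080) without double knockout replicate 1. With all arrays 2 had an unadjusted p under 0.05, and 4 without that array. The 2 were Sostdc1, given above, and Dkk2, which binds the co-receptor Lrp6, at -0.60. Dkk2 lay below the array medians in all arrays, and Sostdc1 in the double knockout arrays, where RMA compresses differences. Of 14 measured beta-catenin targets 9 were lower and 5 higher (median -0.063), with 3 under an unadjusted p of 0.05. Without that array 12 were lower and 2 higher, with a larger median difference of -0.16, and 4 were under that p. The cell cycle gene Ccnd1 read 10.60, 10.42 and 10.59 in the double knockout and 10.83, 10.84 and 10.88 in the single knockout, which differ by -0.31, and the feedback inhibitor gene Nkd2 differed by -0.28. Of 16 measured planar cell polarity genes 9 were lower and 7 higher (median -0.012), with 1 under an unadjusted p of 0.05. Here too the direction turned without that array, to 5 lower and 11 higher (median 0.013), again with 1 under that p. Celsr3, an atypical cadherin gene, differed by 0.27. Vangl2, a core polarity gene, differed by -0.25, or -0.083 without double knockout replicate 1. Each of these named genes had a limma adjusted p of 0.872.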

How the data were processed

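The table deposited by the authors holds log2 values of 45101 probe sets on 6 arrays, and was made with RMA, per the submitters' processing notes. Such values are corrected for background, and RMA normalises arrays to one distribution and summarises the probes of each set. No version or probe definition is stated in the labels. The log2 scale was read from the values, and the number of arrays limits the precision. No detection calls were used.

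Groups and replicate numbers came from the sample titles. Of the probe sets, 34945 had 1 gene symbol, 932 several, 9160 none and 64 were controls. Identifiers of all 10 Frizzled genes matched a RefSeq table. For each of 18193 genes the probe set with the highest mean was fitted with lmFit and eBayes of limma 3.58.1 (R 4.3.3). The two-sided p-values were adjusted over all genes by Benjamini-Hochberg, at a threshold of 0.05. The fit was tested on simulated data.

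Named genes were all Frizzled genes, the members of each pathway list past the threshold or otherwise the 2 lowest in unadjusted p, and the 3 nearest profiles to Fzd2 and to the most variable other receptor. The members, lists and alternatives were chosen with earlier results of these data known.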

Additional observations from a re-analysis of the deposited data

How the results depend on the processing

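In 14 alternatives Fzd2 stayed lower, with differences of -2.49 to -2.30. With the mean of its probe sets the difference was -2.49 and it was not called (adjusted p = 0.0691), and 0 receptors and 0 genes of any kind were called. Leaving out 1 array at a time gave Fzd2 differences of -2.49 to -2.30 and 0 to 1 calls, both among receptors and over all genes. The Fzd2 call was lost when double knockout replicate 3 was left out (limma adjusted p = 0.0759). It was also lost without replicate 1, 2 or 3 of the single knockout (limma adjusted p = 0.0831, 0.120 and 0.109). The call held without double knockout replicate 1 or 2 (limma adjusted p = 0.000601 and 0.0330). No other receptor was called in any alternative. Signs turned without double knockout replicate 1 for Fzd3 (0.059) and Fzd4 (0.052), with array weights for Fzd4 (0.016), and without single knockout replicate 1 for Fzd6 (-0.067). Leaving out 1 array at a time, Fzd3 ran from -0.27 to 0.059, Fzd4 from -0.19 to 0.052 and Fzd6 from -0.067 to 0.21. Fzd5 stayed above 0, from 0.084 without double knockout replicate 1 to 0.47 without double knockout replicate 2. Fzd7 and Fzd9 gave no value with dim genes left out. Samples that share a replicate number did not deviate together (r = 0.094, -0.037 and -0.13), and with that number as a replicate block Fzd2 was again the gene called (1 call, adjusted p = 0.0233).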
